A study of Mus musculus with 11 samples.

Results

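The genes described here carry out DNA synthesis and mitosis, and their transcripts are abundant mainly in dividing cells. A list of 41 genes was read in classical dendritic cells (cDCs) of mouse spleen, with 24 genes of mitosis and 17 genes of S phase kept apart. Each gene was measured by the probe set with a single gene symbol that had the highest mean over all arrays. By that rule 40 of the 41 genes were measured, 23 of mitosis and all 17 of S phase, out of 19938 genes on the array. Ccnb1 was not analysed here.

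Expression was measured on 11 Affymetrix arrays, 1 per sorted sample, of C57BL/6 mice. The 3 groups were CD24+ cDCs of Zeb2(fl/fl) mice (3 arrays), CD172a+ cDCs of Zeb2(fl/fl) mice (4 arrays) and CD172a+ cDCs of Zeb2(fl/fl);CD11c-Cre(tg) mice (4 arrays, labelled CKO). All groups carry the floxed Zeb2 allele and no treatment of the mice was labelled. Zeb2 is a zinc finger repressor, and the CD11c-Cre transgene is meant to act in CD11c-expressing cells. Where deletion took place was not measured here. Only the CKO mice carry Cre, and a Cre effect and a Zeb2 effect cannot be told apart. Ages were not labelled. The labels do not say whether replicates are different mice, so the p-values below reflect variation among these arrays alone, part of which may be technical.

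The Zeb2 probe set went against the CKO label. Its log2 values were 8.23, 8.23, 8.26 and 8.61 in the control CD172a+ arrays and 8.52, 8.32, 9.07 and 9.24 in the CKO arrays. Control CD24+ arrays had 5.19, 5.08 and 5.52. No source used here says whether its probes lie in the deleted part, and the arrays are called labelled CKO throughout. The sorted types matched their markers: 11 of 12 markers of CD24+ cDCs were higher, and 10 of 12 markers of CD172a+ cDCs lower, in the control CD24+ arrays than in the control CD172a+ arrays (limma, adjusted p below 0.05). The sort markers Cd24a and Sirpa are no finding.

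A cell that enters S phase first loads the MCM2-7 helicase onto origins with the help of Cdc6 and Cdt1. Cyclin E (Ccne1, Ccne2) then helps to fire the origins, while Rrm1, Rrm2, Tyms and Tk1 supply deoxynucleotides and Pcna clamps the polymerases to DNA. In mitosis Cdk1 with cyclins A and B drives entry, Plk1, Aurka and Aurkb build and correct the spindle, Bub1 and Bub1b delay separation until chromosomes are attached, and Cdc20 and Ube2c mark proteins for destruction so that the cell can exit. Both groups are held down in resting cells by repressors that bind their promoters and are switched on in turn, S phase genes largely through E2F sites and mitotic genes largely through the cell cycle homology region (CHR) together with CCAAT boxes bound by NF-Y. Most cDCs in the spleen divide little, and division is known mainly from their immediate precursors and from a share of the cDCs themselves.

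The promoters of the members are shown first because motif matches differ in frequency between the classes. RefSeq promoter windows (GRCm38.p6) of 300 bases, from 250 before to 50 after the start site, were found for 33 of the 40 measured members. The CHR was searched as TTTGAA or TTCGAA, the CCAAT box as CCAAT and the E2F site as TTCCCGC or TTGGCGC, each on both strands, and an E2F match can share the letters CCAA with a CCAAT box. Among 20 windows of mitosis members 17 held a CHR (85.0%), against 19.2% of all 32851 windows and 2 of 16 windows of S phase members (12.5%). For E2F the order was turned, with 9 of 16 windows of S phase members (56.2%), 3 of 20 of mitosis members (15.0%) and 6.81% of all windows. CCAAT boxes were frequent in both, with 85.0% of mitosis windows, 68.8% of S phase windows and 37.4% of all windows. Some genes have more than 1 window, the members were not chosen by sequence, and a match is a description and not a bound site.

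The 200 bases before the start site are printed for 3 mitosis members and 3 S phase members whose values are given below. They run 5′ to 3′ on the gene's strand, and capitals mark the letters of any motif above. The mitosis stretches are from Mki67 at chr7:135716380-135716579 (minus strand), Top2a at chr11:99024190-99024389 (minus strand) and Cdk1 at chr10:69352913-69353112 (minus strand). The S phase stretches are from Mcm6 at chr1:128359706-128359905 (minus strand), Mcm5 at chr8:75109309-75109508 (plus strand) and Rrm1 at chr7:102441495-102441694 (plus strand).
Mki67: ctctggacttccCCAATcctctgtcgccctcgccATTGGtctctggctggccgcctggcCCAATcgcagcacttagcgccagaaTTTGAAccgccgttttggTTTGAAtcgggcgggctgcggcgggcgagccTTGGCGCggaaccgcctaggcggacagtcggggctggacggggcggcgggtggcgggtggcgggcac
Top2a: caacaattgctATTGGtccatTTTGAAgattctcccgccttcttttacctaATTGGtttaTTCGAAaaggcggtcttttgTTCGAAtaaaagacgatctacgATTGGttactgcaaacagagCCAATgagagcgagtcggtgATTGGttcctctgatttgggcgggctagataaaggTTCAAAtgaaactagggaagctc
Cdk1: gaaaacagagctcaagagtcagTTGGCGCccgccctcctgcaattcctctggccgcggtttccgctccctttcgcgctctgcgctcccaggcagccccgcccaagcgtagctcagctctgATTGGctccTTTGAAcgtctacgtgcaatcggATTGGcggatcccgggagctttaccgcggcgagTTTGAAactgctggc
Mcm6: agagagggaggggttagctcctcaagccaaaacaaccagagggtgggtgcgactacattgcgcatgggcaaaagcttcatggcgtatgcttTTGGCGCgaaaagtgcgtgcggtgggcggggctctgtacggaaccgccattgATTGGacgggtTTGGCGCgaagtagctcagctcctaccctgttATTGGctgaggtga
Mcm5: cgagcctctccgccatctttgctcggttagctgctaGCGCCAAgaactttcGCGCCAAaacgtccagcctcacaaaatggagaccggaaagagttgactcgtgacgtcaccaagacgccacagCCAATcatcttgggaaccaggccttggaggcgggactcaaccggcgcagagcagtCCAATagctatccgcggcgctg
Rrm1: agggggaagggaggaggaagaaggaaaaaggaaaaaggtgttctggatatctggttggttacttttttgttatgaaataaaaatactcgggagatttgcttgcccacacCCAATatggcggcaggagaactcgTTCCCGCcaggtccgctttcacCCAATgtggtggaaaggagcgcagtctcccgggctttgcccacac
The Top2a stretch holds CHR letters 4 times among several CCAAT boxes, the last of them after the final box, and the Mki67 and Cdk1 stretches hold them 2 times each beside an E2F match. The Mcm6 and Mcm5 stretches hold 2 E2F matches each and no CHR, and the Rrm1 stretch holds 1 E2F match. Nusap1, whose values stand out below, had none of the 3 motifs in its window, which says nothing of the factors that act on it.

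Values are log2 expression from RMA, which scales all arrays to one distribution, so array medians ran from 5.46 to 5.52, and precision is limited by how many arrays each group has. All 40 members had group means above the 95th percentile of 1015 olfactory receptor genes (5.17, 5.27 and 5.13 in the control CD172a+, labelled CKO and control CD24+ groups), a rough mark for no expression. Plk1 and Prc1 were above it in 8 of 11 arrays, and Kif20a, Cdc6 and Ccne1 in 10 of 11. In bulk RNA, fewer dividing cells and less of these transcripts per cell cannot be told apart.

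The CD172a+ arrays were put into 2 array sets by replicate number, replicates 1 and 2 against replicates 3 and 4. The second principal component of the genes other than the members (34.2% of the variance) was picked because it separated these sets most clearly. The separation on it is therefore no independent evidence for the sets. On that component the first set scored -33.9 to -29.5 and the second set 20.5 to 29.0. CD24+ replicate 1 scored -19.1 and was placed in set 1, and replicates 2 and 3 scored 23.0 and 23.8 and were placed in set 2. The labels name no batch, so what the sets stand for is not known. The CD172a+ split was chosen with earlier results known, and only the CD24+ arrays were placed by the component. Because many members differ between the sets, each comparison is given without the set and with it as a block in the fit. Members share the arrays and many shift together, so counts of members with the same sign are not independent observations.

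Control CD24+ cDCs had less mRNA of a small group of mitotic genes than control CD172a+ cDCs, and no S phase gene passed the test. Nusap1, Cenpf and Mki67 were lower in the CD24+ arrays, by 1.72-fold, 1.56-fold and 1.45-fold. In all, 3 of 23 mitosis members and 0 of 17 S phase members passed an adjusted p of 0.05, where 6.41% of all genes did and 3.16% were lower. Among mitosis members 21 of 23 differences were negative, as were 53.9% of all genes (median -0.43, all genes -0.017). The S phase differences were 9 negative and 8 positive (median -0.015). By unadjusted p below 0.05, 6 mitosis members and 0 S phase members were lower, against 7.75% of all genes.

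Nusap1, which bundles spindle microtubules around chromosomes, had log2 values of 7.797, 7.59, 7.65 and 8.09 in the control CD172a+ arrays and 6.67, 7.18 and 7.15 in the control CD24+ arrays. Every CD24+ array lay below every CD172a+ array. The difference was -0.78 ± 0.16 (SE) on the log2 scale (1.72-fold lower, limma adjusted p = 0.0119), and -0.81 ± 0.14 (SE) with the set block (adjusted p = 0.00154).

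Cenpf, a large coiled-coil protein of the kinetochore, was at 6.75, 6.37, 6.41 and 6.704 in control CD172a+ cells and 5.77, 5.81 and 6.19 in CD24+ cells. The groups did not overlap, and CD24+ replicate 3 came closest to the control CD172a+ range. Its difference was -0.64 ± 0.14 (SE) (adjusted p = 0.0155) and -0.65 ± 0.13 (SE) with the block (adjusted p = 0.00461).

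Mki67, which coats mitotic chromosomes and is the usual marker of dividing cells, had 9.16, 8.98, 8.86 and 9.27 in control CD172a+ arrays and 8.32, 8.51 and 8.76 in CD24+ arrays. Again no CD24+ array reached the lowest CD172a+ array. The difference was -0.54 ± 0.13 (SE) (adjusted p = 0.0301), or -0.56 ± 0.12 (SE) with the block (adjusted p = 0.00647).

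Top2a, the topoisomerase that untangles sister chromatids, was the 4th mitosis member whose groups did not overlap. Such a gap towards lower CD24+ values was seen for 4 of 23 mitosis members, 0 of 17 S phase members and 7.43% of all genes. Its values were 9.54, 9.22, 8.997 and 9.43 in control CD172a+ arrays and 8.19, 8.98 and 8.98 in CD24+ arrays, with CD24+ replicate 1 well below the others and replicates 2 and 3 just under the lowest CD172a+ array. The difference of -0.58 ± 0.19 (SE) did not pass without the block (adjusted p = 0.123) and passed with it (adjusted p = 0.048). The gap was seen on the probe set used. The other Top2a probe set had much lower signal, and its groups overlapped. It was at 5.626, 5.127, 4.488 and 5.275 in control CD172a+ arrays and 4.646, 4.492 and 4.374 in CD24+ arrays.

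With the set block, 5 mitosis members were lower and 1 S phase member was higher in CD24+ cells, where 15.4% of all genes were called, 6.9% lower and 8.55% higher. Ccna2, the cyclin that serves both S phase and mitotic entry, was the fifth, at -0.58 ± 0.18 (SE) (adjusted p = 0.0437). Its values were 8.74, 8.55, 8.001 and 8.698 in control CD172a+ arrays and 7.78, 7.76 and 8.09 in CD24+ arrays, which overlapped at control CD172a+ replicate 3. Mcm6, a subunit of the helicase, was the S phase member, at 0.63 ± 0.18 (SE) (adjusted p = 0.0301). As a share of the S phase members this is below the 8.55% of all genes. The values of Mcm6 were 8.52, 8.52, 7.58 and 7.51 in control CD172a+ arrays and 8.901, 8.21 and 8.36 in CD24+ arrays. CD24+ replicate 1 lay above every CD172a+ array, replicates 2 and 3 lay between the CD172a+ sets, and the second CD172a+ set lay below all CD24+ arrays.

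The S phase members with the next smallest p pointed both ways. Mcm4 had 8.23, 8.19, 7.47 and 7.67 in control CD172a+ arrays and 7.78, 7.44 and 7.58 in CD24+ arrays, a difference of -0.29 ± 0.21 (SE) (adjusted p = 0.626). Gins2, a subunit of the GINS complex that travels with the helicase, had 7.44, 7.27, 6.91 and 7.27 in control CD172a+ and 7.77, 7.27 and 7.22 in CD24+ arrays, a difference of 0.195 ± 0.18 (SE) (adjusted p = 0.737). Ccne2 had 6.28, 6.28, 5.45 and 6.34 in control CD172a+ and 6.27, 6.28 and 6.42 in CD24+ arrays, a difference of 0.24 ± 0.22 (SE) (adjusted p = 0.745). The groups overlapped for each of these, and control CD172a+ replicate 3 was the lowest array of Gins2 and Ccne2 in both groups.

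The calls for mitosis members held unequally well. Mki67 was not called without CD24+ replicate 1 or 2, or without control CD172a+ replicate 1, 2 or 4 (adjusted p between 0.0523 and 0.117), and Cenpf was not called without CD24+ replicate 1 (0.0652) or 2 (0.0756). Nusap1 was called with each array left out in turn (highest adjusted p 0.0411). With the block, Nusap1, Cenpf and Mki67 passed with any array left out (Mki67 at 0.0499 without CD24+ replicate 1), while Top2a missed the threshold without any 1 of 8 arrays, Ccna2 without any 1 of 9, and Mcm6 without any 1 of 5.

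The difference of the mitosis members was also uneven between the array sets. Its median was -0.64 in set 1, which has 1 CD24+ array, and -0.15 in set 2, where 16 of 23 were negative and 0 were called. Cdk1, the kinase that starts mitosis, gave opposite values in the sets, -0.64 in set 1 and 0.82 in set 2. Nusap1 (-1.03 and -0.704), Cenpf (-0.798 and -0.56) and Mki67 (-0.76 and -0.43) were negative in both.

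Markers of other cell types moved with this comparison in both directions. Of 10 monocyte markers 4 were lower in CD24+ arrays, while Treml4 and Ccr2 were higher with the set block (by 1.78 and 1.11, adjusted p = 1.44e-06 and 0.0225). The list's mean log2 level was 8.24 to 8.48 in control CD172a+ and 7.49 to 7.65 in CD24+ arrays. Of 12 splenic macrophage markers 1 was lower, with levels of 5.48 to 6.81 and 5.07 to 5.64.

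Of 10 DC progenitor markers 1 was lower, Csf1r, which is also in the monocyte list. The list's levels did not overlap, at 6.49 to 6.70 in control CD172a+ and 6.11 to 6.19 in CD24+ arrays. With the set block 3 of these markers were lower and 1 was higher, Flt3, by 0.59 (limma adjusted p = 0.00664). Of 11 B cell markers 2 were lower and 1 was higher, at 5.30 to 5.63 and 4.99 to 5.16. Of 11 pDC markers 3 were lower and 1 was higher, at 5.81 to 6.23 and 5.76 to 5.86. The erythroid list, whose precursors divide in the spleen, was at 4.96 to 5.08 and 4.91 to 4.95, below the olfactory mark, and 0 of 13 were called (1 lower at an unadjusted p below 0.05). The part of these cells in the result was not tested.

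**Figure D1:**
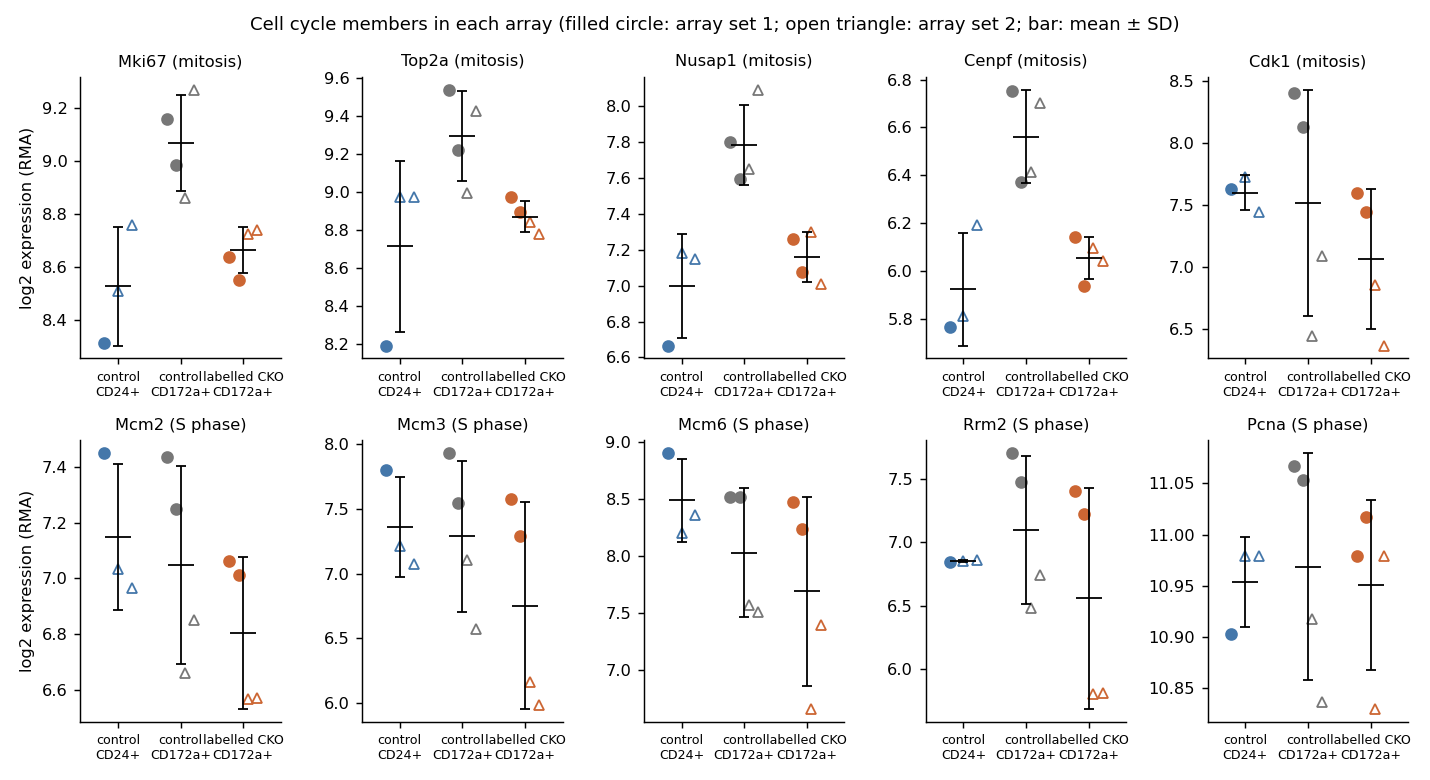
Log2 expression (RMA) of 5 mitosis members (top) and 5 S phase members (bottom) in each of 11 arrays, by group on the x axis, with filled circles for array set 1, open triangles for array set 2, and bars for the mean ± SD of the group. For Mki67, Top2a, Nusap1 and Cenpf the control CD172a+ arrays lie above all others, while for Mcm3, Mcm6, Cdk1 and Rrm2 the main split among CD172a+ arrays is between the array sets.

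No cell cycle member passed the test between labelled CKO and control CD172a+ cDCs. Of all genes 0.0502% did (limma, 0.01% lower), and 0.145% with the set block, which also called 0 members. The means of 23 of 23 mitosis members and 15 of 17 S phase members were lower in the labelled CKO arrays, where 48.5% of all genes were. These signs come from the same arrays and are not independent observations. The median difference was -0.40 for mitosis and -0.31 for S phase, with 0.006 for all genes. At an unadjusted p below 0.05, 8 mitosis members and 0 S phase members were lower, against 1.89% of all genes.

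The mitosis members with non-overlapping groups were Nusap1, Cenpf, Mki67 and Top2a, 4 of 23, where 1.01% of all genes were lower without overlap. In the labelled CKO arrays Nusap1 had 7.26, 7.08, 7.296 and 7.01, against the control values given above. Its difference was -0.62 ± 0.15 (SE) (adjusted p = 0.637, or 0.0944 with the block), the smallest adjusted p among members in both fits. All 4 labelled CKO arrays lay below the lowest control array.

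Labelled CKO values of Cenpf were 6.14, 5.94, 6.097 and 6.04, a difference of -0.51 ± 0.13 (SE) (adjusted p = 0.731). Those of Mki67 were 8.64, 8.55, 8.73 and 8.74, a difference of -0.404 ± 0.12 (SE) (adjusted p = 0.998). Those of Top2a were 8.97, 8.89, 8.84 and 8.78, a difference of -0.42 ± 0.18 (SE) (adjusted p = 0.998). For all of these the labelled CKO arrays lay close together, and the control arrays were spread more widely above them. The exact permutation p of each was 0.0286 (two-sided), the smallest that 4 against 4 arrays can give, and the genes were picked for the gap. On the other, lower Top2a probe set the groups overlapped. Labelled CKO arrays had 5.11, 4.90, 5.38 and 5.31 there, against 5.63, 5.13, 4.49 and 5.28 in control arrays.

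Larger mean differences came with wider spread, as in Kif11 and Prc1, which were singled out after their values were seen. Kif11, the motor that pushes the spindle poles apart, had 8.696, 8.37, 7.25 and 7.68 in control and 8.05, 7.63, 6.75 and 6.89 in labelled CKO arrays. In both groups replicates 3 and 4 were lower than replicates 1 and 2. The difference was -0.67 ± 0.34 (SE) (adjusted p = 0.998, 0.209 with the block). Prc1, which bundles the central spindle, was the largest at -0.68 ± 0.39 (SE) (adjusted p = 0.998). Its labelled CKO replicates 3 and 4, at 4.72 and 4.88, lay below the olfactory mark of 5.27, so the size of this difference is uncertain.

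Cyclin and checkpoint genes were in the same range. Ccna2 had 8.19, 8.25, 7.71 and 7.65 in labelled CKO arrays, a difference of -0.55 ± 0.19 (SE), and Ccnb2, cyclin B2, differed by -0.29 ± 0.14 (SE). The groups overlapped for both. The checkpoint kinases Bub1b and Bub1 differed by -0.49 ± 0.202 (SE) and -0.402 ± 0.37 (SE). Cdk1 was at 8.41, 8.13, 6.44 and 7.09 in control and 7.595, 7.45, 6.85 and 6.36 in labelled CKO arrays, where the first 2 arrays of each label were the higher ones. CD24+ arrays had 7.63, 7.73 and 7.45. The difference of -0.45 ± 0.41 (SE) between the labels was smaller than the spread within each group (SD 0.92 and 0.57).

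Among S phase members the groups overlapped for all 17. Rrm1, the large subunit of ribonucleotide reductase, had 8.55, 8.27, 7.12 and 7.56 in control and 7.85, 7.75, 6.9 and 6.84 in labelled CKO arrays, with the first 2 arrays of each label above the others, and 7.92, 7.34 and 7.43 in CD24+ arrays. The largest mean differences were those of Rrm1 (-0.54 ± 0.34 (SE)), Rrm2 (-0.54 ± 0.395 (SE)), the small subunit, and Mcm3 (-0.54 ± 0.39 (SE)). All 6 MCM subunits were negative, from -0.54 for Mcm3 to -0.25 for Mcm2. Ccne1 was at 6.04, 6.35, 5.96 and 5.77 in control and 6.15, 5.72, 5.27 and 5.59 in labelled CKO arrays, a difference of -0.35 ± 0.18 (SE), and CD24+ arrays had 6.08, 5.75 and 5.85. For Ccne1 labelled CKO replicates 2, 3 and 4 lay below every control array while replicate 1 did not. In labelled CKO arrays Gins2 had 7.43, 7.37, 6.93 and 7.16 and Ccne2 had 6.28, 5.85, 6.503 and 6.28. The differences of Ccne2, Cdc6 and Gins2 were 0.14, 0.14 and -0.001.

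Pcna, the polymerase clamp, varied little. Its values were 11.07, 11.05, 10.92 and 10.84 in control, 10.98, 11.02, 10.83 and 10.98 in labelled CKO and 10.903, 10.98 and 10.98 in CD24+ arrays, so that the 3 groups overlapped. Its 2 probe sets carried identical values and Pcna has near-identical pseudogene copies, so the reading is uncertain. Tk1 is also uncertain, since its other probe set stayed between 7.94 and 8.26 in all arrays. Several members repeat a value across arrays: Mcm5 was at 7.16 in 5 of 11, and Ccne2 repeats 6.276, also in control CD172a+ replicates 1 and 2.

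The direction was the same in the array sets for most members. In replicates 1 and 2 the median was -0.45 for mitosis and -0.24 for S phase members, and in replicates 3 and 4 it was -0.40 and -0.38. Of the mitosis members 22 of 23 were negative in both sets, as were 13 of 17 S phase members, where 25.8% of all genes were. Cdc20, which activates the ligase that ends mitosis, was the exception among mitosis members (-0.45 and 0.006). The difference between the sets in this contrast was called for 0 of 19938 genes as an interaction (limma), and 2 members had an unadjusted p below 0.05, 0.0292 for Rrm2 and 0.0377 for Prc1.

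Some monocyte markers moved with this comparison too, and others did not. Of 10, 1 was lower, Lyz2 at -1.656 (limma adjusted p = 0.00894), and 0 were higher. The list's mean log2 level was 7.602 to 7.998 in labelled CKO and 8.24 to 8.48 in control CD172a+ arrays. Ccr2 (-1.225), Adgre4 (-1.195) and Csf1r (-0.942) also had lower means but were not called. With the set block Csf1r was called (adjusted p = 0.0304). Nr4a1 (-0.043), S100a4 (-0.019) and Fcgr1 (0.069) differed little. Of 11 B cell markers 1 was higher, with a level of 5.66 to 6.05 against 5.30 to 5.63. Of 11 pDC markers 1 was higher, Cox6a2 by 2.09 (adjusted p = 0.000197), with a level of 6.01 to 6.28 against 5.81 to 6.23. The pDC markers did not move together, since 6 of the 11 differences were negative (median -0.017). Of 10 DC progenitor markers 0 were called, at 6.40 to 6.52 against 6.49 to 6.70, and of 12 splenic macrophage markers 0, at 5.54 to 6.87 against 5.48 to 6.81. Germinal centre and plasma cell markers, another class with dividing cells, had 0 of 10 called, at 5.75 to 5.83 against 5.50 to 5.75. Their part in the result was not tested.

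**Figure D2:**
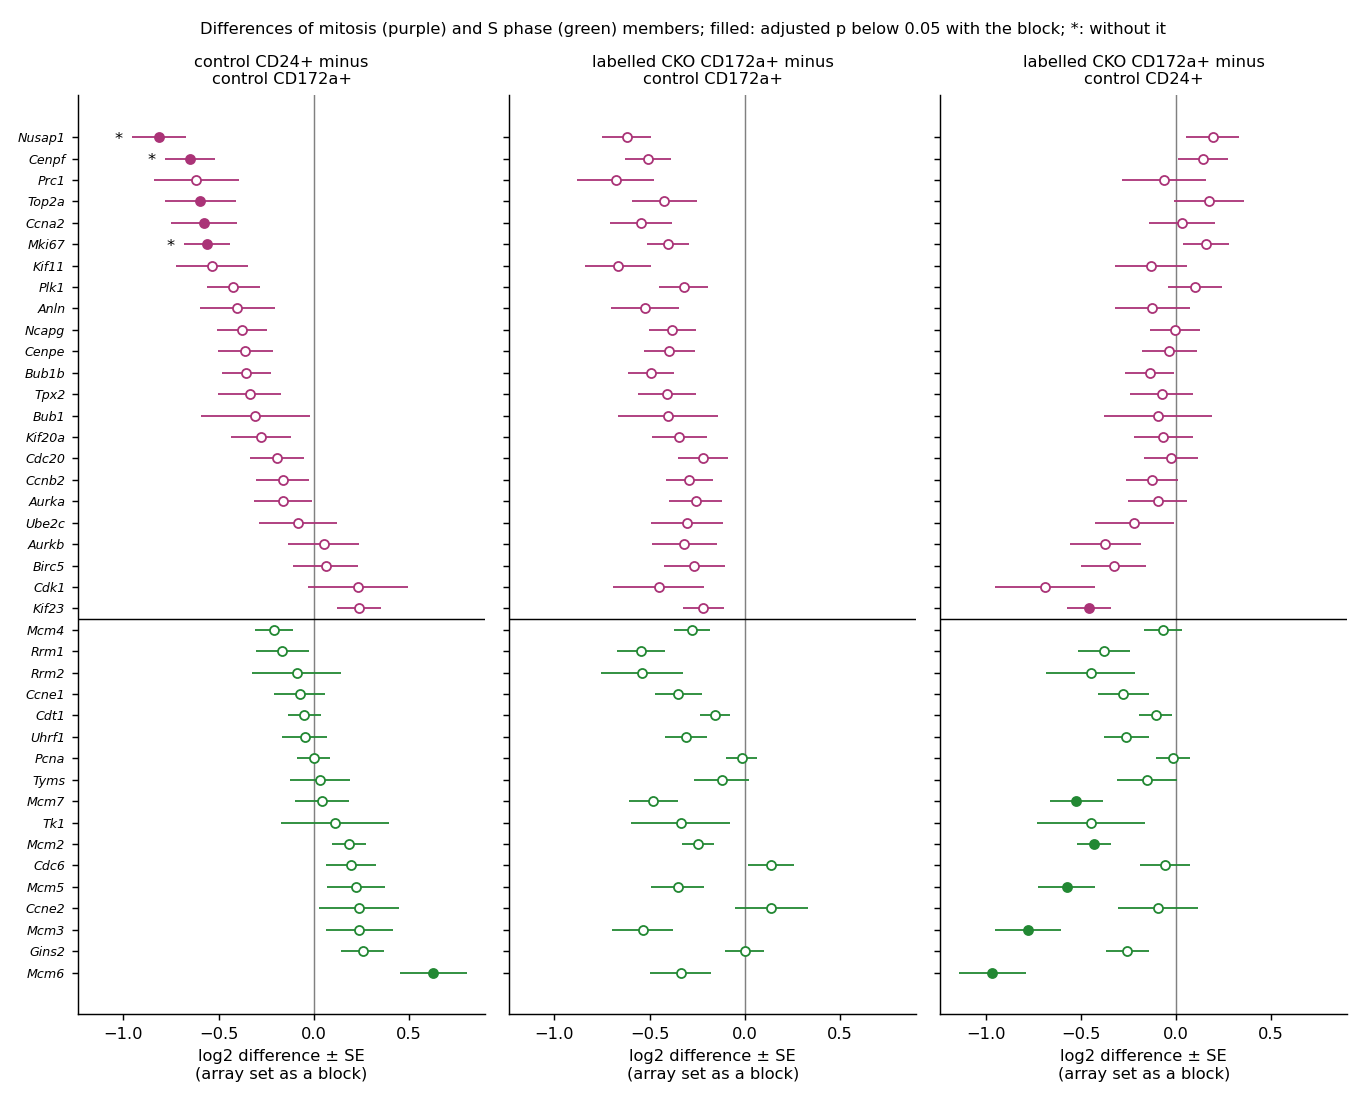
Log2 differences ± SE with the array set as a block, for each of 40 members (rows, ordered by the CD24+ against CD172a+ difference) in the 3 comparisons, with filled points for an adjusted p below 0.05 with the block and an asterisk for one below 0.05 without it. Filled points are mitosis members in the CD24+ against control CD172a+ panel, apart from Mcm6, and MCM subunits in the labelled CKO against CD24+ panel, apart from Kif23, and the middle panel has none.

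No member passed between labelled CKO CD172a+ and control CD24+ cDCs in the fit without the array set, and helicase subunits were lower in the labelled CKO cells with the set as a block. Without the block 0 of 40 members passed, where 7.17% of all genes did. The median difference was 0.006 for mitosis (13 positive, 10 negative) and -0.21 for S phase members (15 of 17 negative, where 42.6% of all genes were), with 0.035 for all genes. At an unadjusted p below 0.05 there were 0 members in either direction, where 18% of all genes passed. This comparison shares its CD24+ arrays with the first and its labelled CKO arrays with the second, so the 3 are not independent.

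With the block, 5 of 17 S phase members were lower (Mcm2, Mcm3, Mcm5, Mcm6 and Mcm7) and 1 of 23 mitosis members (Kif23), where 18.3% of all genes were called and 10.7% were lower. The mitosis share is below that of all genes. The sixth subunit, Mcm4, had 7.87, 7.82, 7.34 and 7.42 in labelled CKO arrays and differed by -0.068 ± 0.101 (SE) (adjusted p = 0.714). The 6 proteins form the ring that unwinds DNA at replication forks.

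Mcm6 had 8.47, 8.24, 6.66 and 7.397 in labelled CKO arrays, against 8.901, 8.21 and 8.36 in CD24+ arrays. Within each set every labelled CKO array lay below every CD24+ array. The difference was -0.795 ± 0.43 (SE) without the block (adjusted p = 0.377) and -0.97 ± 0.18 (SE) with it (adjusted p = 0.00207).

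Mcm3 had 7.57, 7.29, 6.16 and 5.99 in labelled CKO and 7.799, 7.21 and 7.07 in CD24+ arrays, with 7.93, 7.55, 7.11 and 6.57 in control CD172a+ arrays, and labelled CKO replicates 3 and 4 were the lowest of all arrays. Its difference was -0.61 ± 0.42 (SE) without the block (adjusted p = 0.524) and -0.78 ± 0.17 (SE) with it (adjusted p = 0.0077). By set it was -0.37 and -1.07.

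Mcm2 had 7.06, 7.01, 6.57 and 6.57 in labelled CKO, 7.45, 7.03 and 6.97 in CD24+ and 7.44, 7.25, 6.66 and 6.85 in control CD172a+ arrays. The difference was nearly the same in the sets, with -0.41 in set 1 and -0.43 in set 2. The blocked difference was -0.43 ± 0.0907 (SE) (adjusted p = 0.00531), against -0.35 ± 0.21 (SE) without the block (adjusted p = 0.457).

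Mcm5 had 7.16, 7.08, 6.16 and 6.69 in labelled CKO, 7.49, 7.16 and 7.16 in CD24+ and 7.42, 7.16, 7.16 and 6.76 in control CD172a+ arrays, a blocked difference from CD24+ of -0.58 ± 0.15 (SE) (adjusted p = 0.0183). Mcm7 had 7.16, 7.11, 6.34 and 6.31 in labelled CKO, 7.43, 6.96 and 7.06 in CD24+ and 7.697, 7.25, 7.17 and 6.72 in control CD172a+ arrays, a blocked difference of -0.52 ± 0.14 (SE) (adjusted p = 0.0209). For both, labelled CKO replicates 3 and 4 lay below every CD24+ array. The Mcm5 values of CD24+ replicates 2 and 3 are the repeated 7.16 named above, so its reading is uncertain.

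Kif23, a motor of the central spindle needed for cytokinesis, had 8.24, 8.199, 7.89 and 7.85 in labelled CKO, 8.71, 8.21 and 8.36 in CD24+ and 8.67, 8.39, 7.79 and 8.19 in control CD172a+ arrays. Labelled CKO replicate 1 lay within the CD24+ range and the other labelled CKO arrays lay below every CD24+ array. Its blocked difference was -0.46 ± 0.12 (SE) (adjusted p = 0.0157).

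Leaving out 1 array at a time with the block, Mcm2, Mcm3 and Mcm6 passed each time. Mcm5 was lost without CD24+ replicate 2 or 3 (adjusted p = 0.0602 and 0.0626), Kif23 without CD24+ replicate 3 (0.0662), and Mcm7 without CD24+ replicate 2 or 3 or labelled CKO replicate 3 or 4 (0.0608 to 0.0855). The count of S phase members ranged from 3 (without CD24+ replicate 2 or 3) to 7 (without CD24+ replicate 1), and that of mitosis members from 0 to 4. Within set 2 alone, Mcm3, Mcm6, Rrm2, Aurkb and Birc5 passed.

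Rrm2 pointed in opposite directions in the sets. Its values were 6.84, 6.86 and 6.86 in CD24+ arrays, nearly equal across the sets, 7.401, 7.22, 5.803 and 5.81 in labelled CKO arrays and 7.702, 7.47, 6.48 and 6.74 in control CD172a+ arrays. The labelled CKO arrays lay above CD24+ in set 1 and below it in set 2. The difference was 0.47 in set 1 and -1.05 in set 2, and -0.45 ± 0.24 (SE) with the block (adjusted p = 0.234).

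Within CD172a+ cDCs the array set moved more members than any comparison of groups. With group in the fit, 27 of 40 members were lower in replicates 3 and 4 than in replicates 1 and 2 and 0 were higher (15 of 23 mitosis and 12 of 17 S phase), where 25.8% of all genes were called and 14.4% were lower. Since this split was chosen with earlier results of these genes known, it is a description. The median was -0.58 for mitosis, -0.52 for S phase and 0.048 for all genes.

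The largest falls came from both classes. Rrm2 fell by 1.24 on the log2 scale (adjusted p = 9.35e-05), Cdk1 fell by 1.21 (0.00091) and Plk1 fell by 1.201 (0.000111). Mcm6 fell by 1.15 (0.000422), Prc1 fell by 1.15 (0.000232) and Mcm3 fell by 1.13 (0.000538). In labelled CKO replicates 3 and 4, Plk1 (5.14 and 5.10) and Prc1 (4.72 and 4.88) lay below the olfactory mark of 5.27. The sizes of these 2 falls are therefore uncertain. Birc5, the survivin subunit of the chromosomal passenger complex, was at -1.096 ± 0.0993 (SE) and its partner kinase Aurkb at -0.94 ± 0.12 (SE). All 6 helicase subunits were lower, from -1.15 for Mcm6 to -0.51 for Mcm5.

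Another group of mitotic members did not follow the sets. Mki67 (0.066 ± 0.11 (SE)), Nusap1 (0.08 ± 0.12 (SE)), Cenpf (0.013 ± 0.11 (SE)), Cenpe (0.15 ± 0.14 (SE)), a kinetochore motor, and Top2a (-0.15 ± 0.11 (SE)) were not called. Mki67, Nusap1, Cenpf and Top2a are the members whose CD24+ and labelled CKO arrays lay below all control CD172a+ arrays. For Top2a this holds on the probe set used and not on its other one. The SD within control CD172a+ arrays was 0.18 for Mki67, 0.22 for Nusap1, 0.195 for Cenpf and 0.24 for Top2a, against 0.92 for Cdk1 and 0.58 for Rrm2. Within CD24+ arrays the order was turned for Top2a (0.45) and Cdk1 (0.14).

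Array by array, the mean log2 level of the 23 mitosis members in control CD172a+ arrays was 7.86, 7.58, 6.95 and 7.26. In labelled CKO arrays it was 7.36, 7.22, 6.75 and 6.69, and in CD24+ arrays it was 7.04, 6.95 and 7.09. The S phase members had 7.64, 7.50, 7.01 and 7.04, then 7.43, 7.29, 6.71 and 6.74, and 7.50, 7.21 and 7.20 in the same order. In each CD172a+ group the 2 arrays of set 1 were the highest. Among CD24+ arrays the S phase mean was higher in the set 1 array, and the mitosis mean lay between those of the set 2 arrays.

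**Figure D3:**
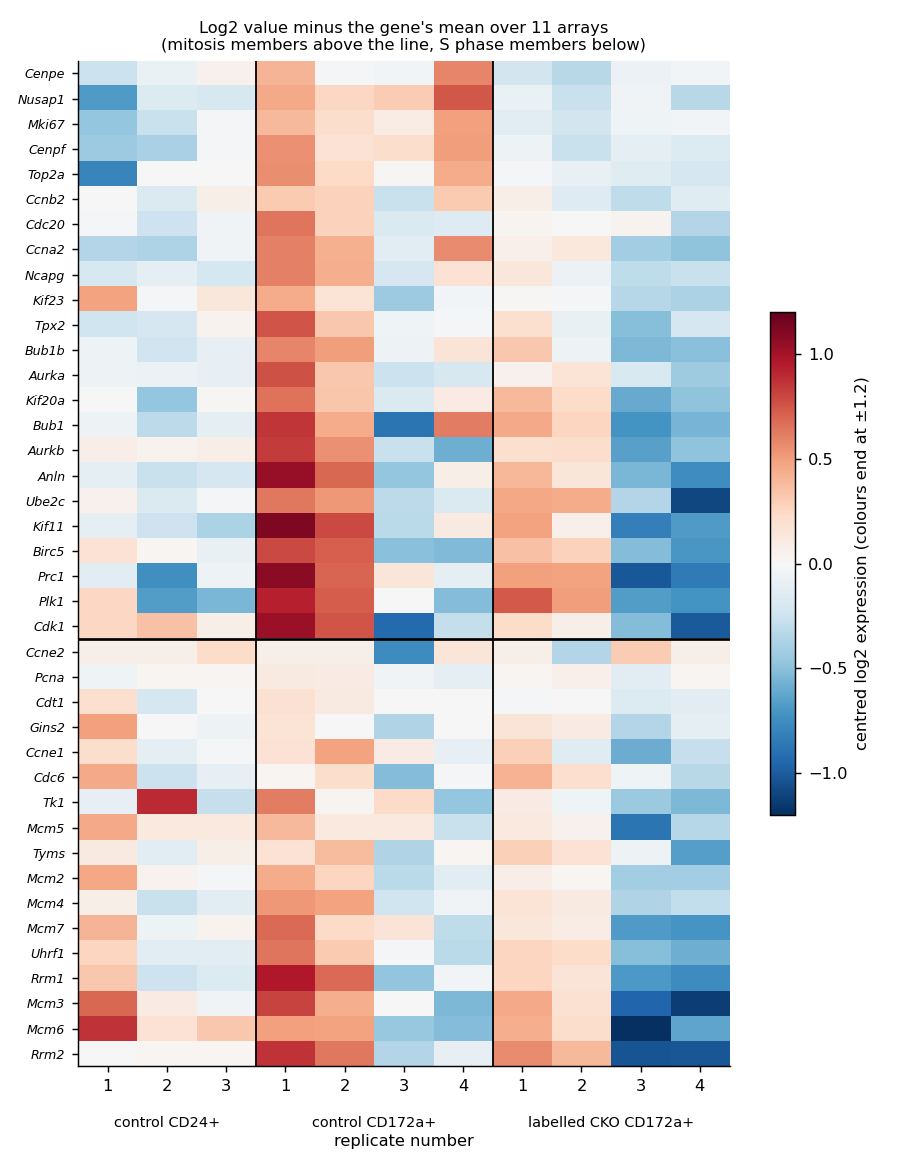
Log2 value of each of 40 members (rows) minus its mean over the 11 arrays (columns, by group and replicate number), red for higher and blue for lower, with mitosis members above the line and S phase members below it, each ordered by the difference between CD172a+ replicates 3 and 4 and replicates 1 and 2. The top mitosis rows, from Cenpe to Top2a, are red or pale across the control CD172a+ arrays, while the lower rows of both classes are red in CD172a+ replicates 1 and 2 and blue in labelled CKO replicates 3 and 4.

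Within CD24+ arrays, with 1 array in set 1 against 2 in set 2 and no test, the set difference was negative for 13 of 17 S phase members (median -0.34) and 15 of 23 mitosis members (median -0.049). Mcm6 differed by -0.62 between the CD24+ sets, Mcm3 by -0.66 and Rrm1 by -0.53, and those of control CD172a+ arrays were -0.98, -0.897 and -1.07. Rrm2 differed by 0.016 in CD24+ arrays and Tk1 by 0.41. For Cdk1 it was -0.042 in CD24+ against -1.503 in control CD172a+ arrays, for Birc5 -0.21 against -1.27, and for Kif11 -0.201 against -1.07. The mitosis members ran from -0.86 for Plk1 to 0.78 for Top2a, with 0.499 for Nusap1 and 0.32 for Mki67.

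Marker lists of other cells also differed between the sets, some upwards and some downwards. Of 12 splenic macrophage markers 9 were higher and 1 was lower, Adgre1 at -0.43, in CD172a+ replicates 3 and 4. Of all genes 11.4% were higher and 14.4% lower. The list's mean level was 5.48, 5.71, 6.74 and 6.81 in control CD172a+ arrays, 5.54, 5.59, 6.87 and 6.55 in labelled CKO arrays, and 5.07, 5.64 and 5.63 in CD24+ arrays. C1qc, a complement component made by macrophages, was higher by 3.15 and Vcam1, an adhesion molecule of red pulp macrophages, by 2.38. Of 10 monocyte markers 2 were higher and 2 lower. Cd14, the endotoxin co-receptor, was higher by 3.32 (limma adjusted p = 2.14e-06). The lower ones were Nr4a1 at -1.16 and Treml4 at -1.13 (adjusted p = 0.000291 and 0.000188).

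Markers of the sorted type itself fell in replicates 3 and 4, with 9 of 12 markers of CD172a+ cDCs lower and 2 higher. Among them Cd4 was at -1.12, the transcription factor Irf4 at -0.83 and Esam at -0.68. The higher ones were Tbx21 at 0.89 and Clec10a at 0.59. Of 11 B cell markers 4 were lower and 1 higher, with Cd79b, a subunit of the B cell receptor, at -1.43 and Blk at 0.43. Of 11 pDC markers 3 were lower. Whether these cells take part in the difference was not tested.

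**Figure D4:**
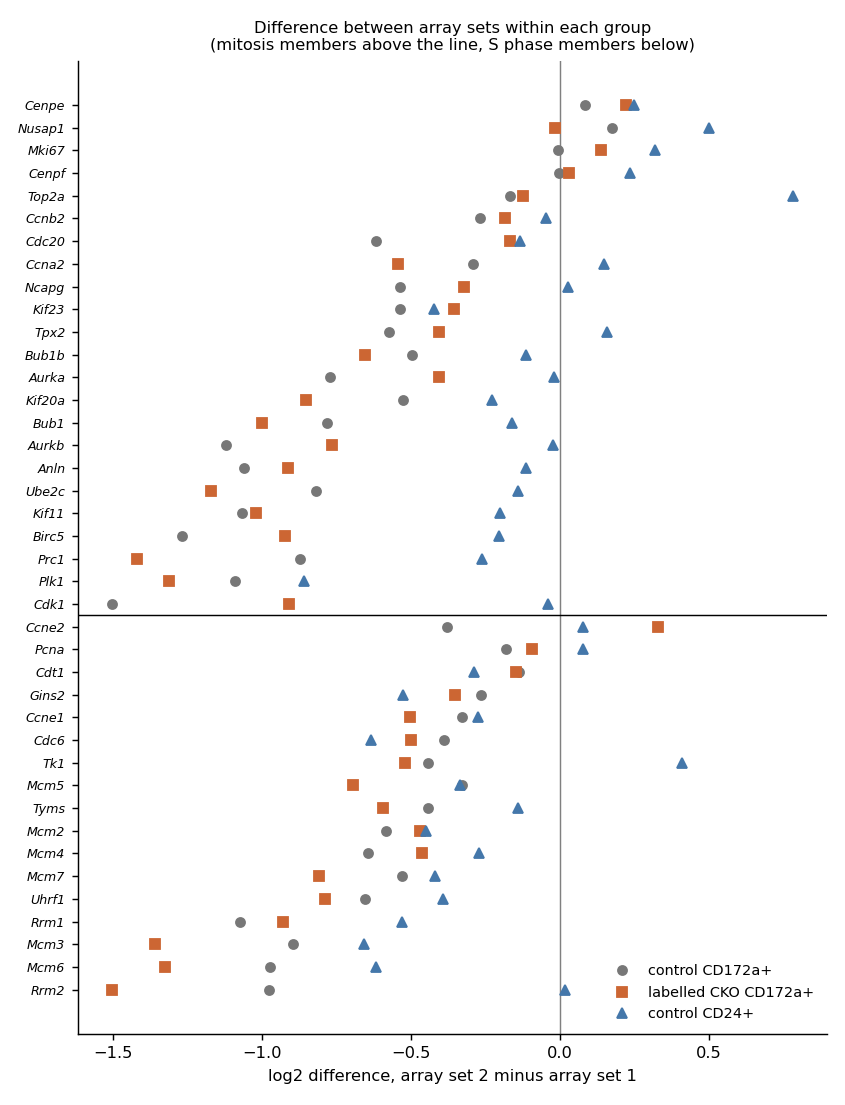
Log2 difference between array set 2 and array set 1 within each group, for each of 40 members (rows), with circles for control CD172a+, squares for labelled CKO CD172a+ and triangles for control CD24+ arrays. Circles and squares lie left of 0 for most members and reach -1.50, while the triangles of MCM subunits lie between -0.66 and -0.27 and that of Cdk1 is at -0.042.

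Beyond the members, genes that decide whether a cell enters the cycle were read from further lists. Their counts in CD24+ against control CD172a+ cells stand against 6.41% of all genes called, 3.16% lower. Of 7 G1 cyclins and kinases, 1 was lower and 0 were higher in CD24+ than in control CD172a+ cells. Ccnd2, a D cyclin that activates Cdk4 and Cdk6, was at 6.84 ± 0.41 (SD, n = 3) in CD24+ and 8.22 ± 0.28 (SD, n = 4) in control CD172a+ cells, a difference of -1.38 ± 0.20 (SE, limma adjusted p = 0.00118). Labelled CKO cells had 8.497 ± 0.14 (SD, n = 4) and were higher than CD24+ cells by 1.65 (adjusted p = 0.000316). With the block, Cdc25a, a phosphatase that activates Cdk2, and Cdk4 were higher in CD24+ than in control CD172a+ cells by 0.94 and 0.56, and Ccnd1 was lower by 0.93 (adjusted p = 5.59e-05, 0.0128 and 0.0128).

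Of 9 CDK inhibitors and pocket proteins, 1 was lower in CD24+ cells. Rb1, the retinoblastoma protein that holds E2F factors in check, was at 7.91 ± 0.24 (SD, n = 3) in CD24+, 9.16 ± 0.14 (SD, n = 4) in control CD172a+ and 9.21 ± 0.12 (SD, n = 4) in labelled CKO cells. The difference was -1.24 ± 0.13 (SE, adjusted p = 0.000125) between the control types and 1.30 ± 0.13 (SE, adjusted p = 8.93e-05) between labelled CKO and CD24+ cells. Cdkn1b, the inhibitor p27, was 0.43 lower in CD24+ than in control CD172a+ cells with the block (adjusted p = 0.00606). It was 0.59 higher in CD172a+ replicates 3 and 4 than in replicates 1 and 2 (adjusted p = 0.00077).

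Of 18 transcription factors of the E2F, MuvB, FoxM1 and Myc groups, 1 was higher and 1 lower in CD24+ than in control CD172a+ cells. Tfdp1, the DNA-binding partner of E2F factors, was higher by 0.43 (adjusted p = 0.0287), and E2f2 was lower by 0.57 (adjusted p = 0.0397). Tfdp1 was lower in labelled CKO than in CD24+ cells by 0.67 (adjusted p = 0.00172). Foxm1, an activator of mitotic genes, was at 6.37 ± 0.14 (SD, n = 4) in labelled CKO and 6.87 ± 0.31 (SD, n = 4) in control CD172a+ cells, a difference of -0.49 (adjusted p = 0.998, 0.113 with the block).

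The wider lists of mitosis and replication genes are given by counts. In CD24+ against control CD172a+ cells, 3 of 48 further mitosis genes were lower and 0 higher (median -0.33), where 3.16% of all genes were lower. These were Ndc80 (-0.61, adjusted p = 0.0194), a microtubule-binding kinetochore subunit, Aspm (-0.63, 0.0394) of the spindle poles and Incenp (-0.56, 0.0462) of the passenger complex. Of 45 further replication genes 1 was lower (median 0.042), below the share of all genes, and this was Gins3, at -0.58 (adjusted p = 0.0186). With the block, Hells, a chromatin remodeller of replicating cells, was higher in CD24+ cells by 1.43 (adjusted p = 2.67e-05).

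In labelled CKO against control CD172a+ cells, 0 of 48 mitosis genes (44 negative, median -0.37) and 0 of 45 replication genes (40 negative, median -0.17) passed. At an unadjusted p below 0.05, 13 mitosis genes and 5 replication genes were lower and 0 higher, where 1.89% of all genes were lower. Tacc3, which stabilises spindle microtubules, had the smallest p among mitosis genes, at -0.54 ± 0.11 (SE, adjusted p = 0.393), followed by the kinase Melk at -0.59 ± 0.13 (SE, adjusted p = 0.399). Against CD24+ cells, with the block, 10 of 45 replication genes were lower in labelled CKO cells and 1 was higher, and 4 of 48 mitosis genes were lower and 1 higher, where 10.7% of all genes were lower and 18.3% were called. The mitosis share is below that of all genes. Hells was lower by 1.87 (adjusted p = 2.67e-06).

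Of 12 p53 target genes, which mark arrest after DNA damage, 0 passed between labelled CKO and control CD172a+ cells (median 0.01). Sesn2, a stress-induced regulator of growth signalling, was the gene that passed without the block in both other comparisons, lower in CD24+ than in control CD172a+ cells by 0.66 (adjusted p = 0.00624) and higher in labelled CKO than in CD24+ cells by 0.87 (adjusted p = 0.000852). These comparisons share the CD24+ arrays.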

How the data were processed

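The deposited table holds log2 values of 30177 probe sets on 11 arrays, made by the authors with RMA per the submitters' processing notes; builds and further steps are not given in the sources used here. Cells were FACS-sorted from collagenase B and DNase I digested spleen, and RNA (RNAqueous-Micro) was amplified (Ovation PicoSL) and biotin-labelled, per the labels' protocols. A single gene symbol was given for 21789 probe sets, several for 1621 and none for 6767. The tests used limma 3.58.1 (R 4.3.3) on all 11 arrays (8 residual degrees of freedom), Benjamini-Hochberg adjusted over 19938 genes, threshold 0.05.

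Values in every array are given for members that passed in any comparison, for the 4 of each class with the smallest p in each, and for Mki67, Top2a, Cdk1, Pcna, Mcm2, Rrm2 and Ccne1. Of each further list, up to 4 genes with the smallest p are eligible. The members and lists were chosen with earlier results of these data known. Tested on simulated data for labelled CKO against control CD172a+ arrays (19938 genes), the fit recovered 86% of 100 genes changed by 1 and 96% of 100 changed by 2 on the log2 scale. The member differences in this comparison, which reached -0.68, were smaller than any simulated, and the simulated arrays carried no array sets. The shares recovered therefore do not apply to the members. No 2 arrays shared more than 5.52% identical values.

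The labels number replicates alike in each group. Deviations from group means correlated at 0.442 to 0.68 between CD172a+ arrays of the same number (4 pairs), so these were treated as paired in an alternative, but at 0.496 to 0.699 between other numbers of the same array set. CD24+ with CD172a+ arrays of the same number gave -0.445 to 0.592 (6 pairs). The pairs of replicate 2, whose arrays lie in different array sets, gave -0.445 and -0.361. Alternatives were array set and replicate blocks, array weights, repeated normalization, filters, only the 2 groups compared, and arrays left out.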

Additional observations from a re-analysis of the deposited data

Results flagged for a closer look

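Of 80 groups of 4 arrays tested over the members, 3 had an array far from the other 3 of its group, and chance marks about 1 in 20. Ccnb2, cyclin B2, was at 8.66 in control CD172a+ replicate 3, where the nearest of the other arrays had 9.21. Ccne2, cyclin E2, was at 5.45 in the same array, where the nearest had 6.28. Control CD172a+ replicates 1 and 2 repeat the same Ccne2 value (6.276), so this flag is uncertain. Cdc20, the activator of the ligase that ends mitosis, was at 6.24 in labelled CKO replicate 4, where the nearest had 6.58.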

How the results depend on the processing

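Counts of members that passed differed between fits with and without the array set, and the cause was not tested. Fits within an array set, and blocked fits with arrays left out, were chosen after seeing the data. For CD24+ against control CD172a+ cells, 3 mitosis members became 5 with the set block, 1 with only the 2 groups compared and 0 within set 2, and S phase members went from 0 to 1 with the set block. Leaving out arrays gave 1 to 5 mitosis members, 1 without CD24+ replicate 1 or 2 and 5 without control CD172a+ replicate 3 (3 to 9 with the block, 6 without CD24+ replicate 3) and 0 S phase members (0 to 1 with the block). For labelled CKO against CD24+ cells, 0 mitosis members became 1 with the block and 2 within set 2, and 0 S phase members became 5 and 3. Leaving out arrays gave 0 of either class, and 0 to 4 mitosis and 3 to 7 S phase members with the block. For labelled CKO against control CD172a+ cells the count was 0 in every fit run. The median of its mitosis members ran from -0.52 to -0.24 with arrays left out (-0.51 to -0.30 with the block) and that of its S phase members from -0.45 to -0.16 (-0.34 to -0.24). In CD24+ against control CD172a+ cells these were -0.55 to -0.27 (-0.45 to -0.11) and -0.10 to 0.11 (-0.038 to 0.17), and in labelled CKO against CD24+ cells -0.14 to 0.12 (-0.31 to 0.028) and -0.37 to -0.087 (-0.39 to -0.25). The replicate set difference called 20 (without labelled CKO replicate 1) to 27 members.

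In the fit of all 11 arrays with a replicate block, 4 mitosis members passed in CD24+ against control CD172a+ cells, but Mki67 did not (adjusted p = 0.0518, limma). That block joins CD24+ replicate 2 to CD172a+ arrays of the other array set. Within CD172a+ arrays the replicate block gave the same medians, -0.402 for mitosis and -0.309 for S phase members, and changed no other call of the labelled CKO comparison. The further cell cycle lists hold 48, 45, 7, 9, 18 and 12 measured genes. Their calls numbered 9 in CD24+ against control CD172a+ cells and became 28 with the set block. Of all genes 6.41% passed without the block and 15.4% with it. The count was 20 with the replicate block, 5 with only the 2 groups compared and 17 with array weights (3 to 11 with arrays left out). In labelled CKO against CD24+ cells 5 became 31, 13, 8 and 15 under the same settings, 10 among genes above the median level and 22 within set 2 (4 to 10 with arrays left out). Here 7.17% of all genes passed without the set block and 18.3% with it. The counts show how calls depend on the fit and are no result about the lists. Within set 1, where the CD24+ group is 1 array assumed to vary like the others, 5 mitosis members passed against control CD172a+ cells and 11 genes of the further lists passed between labelled CKO and CD24+ cells. These counts rest on no replicate of that group and say nothing of stability.

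Directions turned for members with small differences. In CD24+ against control CD172a+ cells, Cdk1 became -0.11 with the replicate block, -0.18 with array weights, -0.64 within set 1 and -0.28 and -0.06 without control CD172a+ replicate 3 or 4 (up to 0.38 without other arrays), Mcm2 became -0.079 with array weights and -0.05 to 0.23 with arrays left out (-0.03 without control CD172a+ replicate 3), Ccne2 became -0.005 within set 1, and Rrm2 became 0.25 within set 2. Pcna became 0.023 with median-centred arrays, 0.10 within set 2 and -0.059 to 0.018 with arrays left out. In labelled CKO against CD24+ cells, Nusap1 became -0.013 within set 2 and -0.005 without CD24+ replicate 1, Top2a became -0.001 with array weights, -0.17 within set 2 and -0.10 without CD24+ replicate 1 (0.29 without replicate 2), Rrm2 became 0.47 within set 1, and Pcna became 0.015 with the replicate block, 0.067 with repeated quantile normalization, 0.095 within set 1 and -0.028 to 0.038 with arrays left out. In labelled CKO against control CD172a+ cells Pcna became 0.027 within replicates 3 and 4 and -0.061 to 0.023 with arrays left out. Of the other values of single members, 414 kept their direction and side of the threshold, 15 newly passed and 8 no longer passed, not counting fits with an array left out.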
